A study of Homo sapiens with 50 samples.

Results

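The hairpins described here target transglutaminases and a peptidylarginine deiminase, 2 groups of enzymes that need calcium to modify proteins. They were taken as the rows of the deposited table that named a single gene beginning with TGM or PADI. This gave 15 of 3443 hairpins, 5 each against TGM1, TGM2 and PADI4, and 0 hairpins that named several genes with one of these among them. The rule used no measured value. Other genes of both families were not analysed here. A short hairpin RNA (shRNA) is a designed RNA that is expressed from an integrated lentivirus and lowers the expression of its target gene. Each hairpin is named by its catalogue ID (TRCN number).

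Transglutaminases join a glutamine of a protein to the amine of a lysine or of a small molecule. TGM1, the keratinocyte enzyme, cross-links proteins into the envelope of cornified skin cells, and its loss causes a form of ichthyosis. TGM2, or tissue transglutaminase, is widely expressed, binds GTP as well as calcium, cross-links matrix proteins, and can attach serotonin to a glutamine of histone H3. PADI4 is the deiminase with a nuclear localisation signal. It converts arginine to citrulline in histones and other proteins, and is best known in neutrophils, where it opens chromatin for the release of extracellular traps.

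The cells were IMR90, fibroblasts from human lung with a finite lifespan, whose permanent arrest after many divisions is called replicative senescence, kept at 3% oxygen and infected at a multiplicity of infection of 0.3. The groups were population doublings (PD) 40, the proliferating start, then 45, 50, 55 and 60, where the cells were senescent. They differed only in time: cells of every group carried the hairpin library, and each hairpin was placed on 4 of 10 plates. The screen asked which genes limit lifespan, since a cell with a hairpin against such a gene should outgrow its neighbours.

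The table gave sequence tags per hairpin in 1 column per PD, pooled by the authors over plates, with 8270745 to 11505688 tags in a column. There was therefore no replicate and no test over cultures, and the number of plates behind a change cannot be read from a pooled column. Successive columns also follow the same cultures. Values are counts per 1000000 tags of a column (CPM). Intervals are exact 95% intervals for tag counts and cover counting error only, since PCR tags are not independent molecules. A hairpin was called higher or lower past 2-fold, as the log2 ratio of CPM plus 1, where either column had at least 10 tags. Loss was the rule in the library, since 95.3% of 3418 hairpins ended over 2-fold below their PD40 level. The non-targeting control hairpin had 529, 202, 78.9, 11.6 and 4.72 CPM from PD40 to PD60, 112-fold lower at the end. RNA and protein of the targets, and markers of the fibroblasts, were not measured in these DNA samples.

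By PD60, 4 of the 15 hairpins stood over 2-fold above their PD40 level, against 2.28% of all hairpins tested. They were TGM2 TRCN0000000241, PADI4 TRCN0000051678, and TGM1 TRCN0000036106 and TRCN0000036108. Over 2-fold lower were 10 (66.7%, library 95.3%), and 1 PADI4 hairpin stayed within 2-fold. The members thus split into a few large gains and a majority of losses. Their median log2 change was -5.44 (library -5.86), and both values depend on the added 1 CPM. As plain ratios of PD60 to PD40 the medians were 0.00879 for the members and 0.000955 for the library, a difference that was not tested. These 15 hairpins made up 0.436% of the table and 5.13% of the 78 hairpins that were higher at PD60. Over 2-fold higher were 3 members at PD45 (library 5.73%), 4 at PD50 (4.94%) and 4 at PD55 (2.92%). Over 2-fold lower were 8, 9 and 9 members at these times (library 63.2%, 81.9% and 91.7%).

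From PD40 to PD60 the 15 hairpins together held 0.451%, 0.726%, 0.974%, 1.81% and 4.79% of tags (for the last, exact binomial interval 4.775 to 4.804). Their share was thus higher at each successive time. Of their 396148 tags at PD60, 98.7% came from the 4 hairpins named above. Without TGM2 TRCN0000000241, the share at PD60 was 2.59% of the remaining tags.

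TGM1 was the gene with 2 gaining hairpins, which was so for 7 of 631 genes with at least 3 hairpins. TGM1 TRCN0000036106 had 708, 1882, 2440, 1842 and 7374 CPM from PD40 to PD60. It gained early, stayed near one level for 3 time points, and was 4.00-fold higher (3.94 to 4.07) at PD60 than at PD55. Its ratio of PD60 to PD40 was 10.4 (10.1 to 10.7), the 26th highest of the library. TGM1 TRCN0000036108 had 272, 1547, 2389, 1786 and 880 CPM. It gained most before PD50, was highest there, and then declined, ending 3.23-fold above PD40 (3.09 to 3.39). Its 5.69-fold gain by PD45 (5.44 to 5.94) ranked 23rd of all hairpins at that time.

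These TGM1 hairpins differed 2.60-fold in level at PD40, 1.22-fold at PD45, 1.02-fold at PD50 and 1.03-fold at PD55, and then 8.38-fold at PD60. TRCN0000036106 was the higher of the pair at each time. Their levels thus came together by PD50 and separated in the last interval. Both were over 2-fold above PD40 at all 4 later times, a pattern found in 0.789% of the hairpins tested.

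The other TGM1 hairpins were lost. TGM1 TRCN0000036104 had 284, 41.1, 8.26, 2.43 and 0.242 CPM. It ended at 2 tags, with a ratio to PD40 of 0.000851 (0.000103 to 0.00308). TGM1 TRCN0000036105 had 256, 43.7, 41.0, 7.39 and 0.121 CPM and ended at 1 tag, a ratio of 0.000472 (1.2e-05 to 0.00263). Between PD45 and PD50 this hairpin held its level, with a ratio of 0.939 (0.810 to 1.09). TGM1 TRCN0000036107 began lowest, with 589 tags, had 31, 1 and 4 tags at the middle times and 0 at PD60, which was at least 188-fold lower against a floor of 3 tags per column.

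TGM2 had 1 gaining hairpin, and its gain came late. TGM2 TRCN0000000241 had 410, 516, 201, 1268 and 22538 CPM over the same times. It was 2.04-fold below its starting level at PD50, 3.10-fold above it at PD55 (2.98 to 3.21) and 55.0-fold above it at PD60 (53.2 to 56.9). The last interval alone accounted for a 17.8-fold gain (17.5 to 18.1), the 17th largest of 1786 hairpins with a tag at PD55 and at least 10 tags at either time. At PD60 it was the 12th most abundant hairpin of the library, with 2.25% of tags, and it stood at rank 537 at PD50.

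The remaining TGM2 hairpins were lower at PD60, to very different degrees. TGM2 TRCN0000000239 had 272, 258, 217, 124 and 89.4 CPM, a slow decline that ended 3.04-fold below PD40, while with edgeR's TMM scaling, which assumes that most hairpins do not change, it was higher. The non-targeting hairpin was 112-fold lower over the same time. TGM2 TRCN0000000243 had 68.7, 9.45, 3.18, 0.435 and 0.605 CPM and was 114-fold lower, with 5 tags at PD55 and at PD60, and with TMM scaling its log2 change was 0.02. TGM2 TRCN0000000240 and TRCN0000000242 started at 135 and 138 CPM and both had 0 tags at PD60, at least 372-fold and 380-fold lower. TRCN0000000242 was at 0 already at PD55, when TRCN0000000240 still had 43 tags.

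The 5 PADI4 hairpins took several courses, since 1 gained, 1 ended near its start relative to the column total (over 2-fold higher with TMM scaling), 1 gained and then declined, and 2 were lost. PADI4 TRCN0000051678 had 621, 1146, 2531, 11906 and 16507 CPM. It was higher at each of the 4 steps, which held for 0.38% of hairpins tested and for 1 of the 15. The step ratios were 1.84, 2.21, 4.70 and 1.39, so its largest gain fell between PD50 and PD55, before that of TGM2 TRCN0000000241. It ended 26.6-fold above PD40 (25.9 to 27.3), the 15th highest ratio, and at rank 19 of abundance with 1.65% of tags.

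PADI4 TRCN0000051679 had 532, 1320, 1574, 822 and 156 CPM. It was 2.96-fold above PD40 at PD50 (2.86 to 3.06) and 3.41-fold below it at PD60, although with TMM scaling it was above PD40 at PD60 too. Such a gain of over 2-fold followed by an end over 2-fold below the start was seen in 5.08% of hairpins tested. PADI4 TRCN0000051681 had 419, 187, 216, 305 and 353 CPM. It was 2.25-fold lower at PD45 and then higher at each later step, ending at 0.842 of its PD40 level (0.802 to 0.885), while with TMM scaling its log2 change was 6.57. PADI4 TRCN0000051680 kept its level to PD45, with 232 and 228 CPM, then had 87.9, 7.65 and 0 CPM, at least 640-fold lower. PADI4 TRCN0000051682 had 90.9, 21.9 and 3.07 CPM and was at 0 tags at PD55 and PD60, at least 251-fold lower at the end.

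The times of gain thus differed among the hairpins of one gene as well as between genes. Over 2-fold higher than at the preceding time were 3 members at PD45 (library 5.73%), 1 at PD50 (library 2.22%), 2 at PD55 (library 1.7%) and 2 at PD60 (library 5.4%). The 3 at PD45 were both gaining TGM1 hairpins and PADI4 TRCN0000051679. At PD50 it was PADI4 TRCN0000051678, at PD55 this hairpin and TGM2 TRCN0000000241, and at PD60 TGM2 TRCN0000000241 and TGM1 TRCN0000036106. Over 2-fold lower than at the preceding time were 8 members at PD45 (library 63.2%) and 7 of 15 tested at PD50 (library 71.4%). At PD55 it was 7 of 14 (library 80.8%), and at PD60 it was 6 of 11 (library 73.2%). At 1 or more later times 5 members were over 2-fold above PD40, against 8.59% of hairpins tested. The 10 members that never were had medians of 185, 40.8, 14.5, 3.09 and 0.0605 CPM from PD40 to PD60. The medians of all hairpins, with those that gained included, were 118, 38.8, 7.78, 0.956 and 0.121 CPM. Both medians at PD60 lay below 3 tags (0.363 CPM).

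The share of hairpins that gained was larger among those abundant at PD40, and the members started high. Their median at PD40 was 272 CPM, and with the hairpins cut into 5 equal groups by PD40 tags, 5 members lay in the top group (from 2998 tags), 5, 3 and 2 in the next groups down and 0 in the lowest. In the top group 3 of 5 members were over 2-fold higher at PD60, against 6.24% of all hairpins there. In the next it was 1 of 5 against 3.34%, and below that 0 of 3 against 1.02% and 0 of 2 against 0.581%. For each of the 3 genes the hairpin most abundant at PD40 was also the most abundant at PD60, which held for 60.5% of 506 genes with 5 hairpins and a tag at PD60. Spearman's rho between PD40 tags and log2 change was -0.40 over 3418 hairpins and 0.57 over the 15 members, whose values share the same columns. With 0 tags at PD60, as in 44.1% of all hairpins, the added 1 CPM makes the log2 change lower the higher the PD40 level. The rho over the library therefore cannot give the direction of the relation. As plain ratios of PD60 to PD40, the library's medians from the top group down were 0.0116, 0.00237, 0.000935, 0 and 0. Abundance before PD40 was not analysed here, and the part of starting abundance in these gains was not tested.

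Averaged over their hairpins, all 3 genes were lower at PD60 than at PD40, and with TMM scaling all 3 means turned positive. Hairpins of 1 gene share a target and are not replicates, so the SD below is a spread between designs. The mean log2 change was -2.33 for PADI4 (SD 5.07, 5 hairpins), -3.09 for TGM2 (SD 5.45) and -3.35 for TGM1 (SD 5.45). They ranked 8th, 25th and 34th from the top of 631 genes, whose median was -5.58. These ranks used no count minimum, and few tags at PD40 hold a log2 change near 0. The arginine methyltransferase CARM1, with 0 of 5 hairpins over 2-fold higher at PD60, had a mean of -2.97. Its hairpins with 7 and 4 tags at PD40 entered at -0.86 and -0.55. The ranks thus depended in part on PD40 level. The differences among the 3 means are small beside these SDs. By the median hairpin PADI4 stood at -1.76 and ranked 6th, while TGM2 at -5.44 and TGM1 at -6.11 (-5.67 with counts under 3 raised to 3) lay near the median of genes, -5.86. As plain ratios of PD60 to PD40 the median hairpins of TGM2 and TGM1 were at 0.00879 and 0.000851, against 0.000955 over all hairpins.

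Hairpins against one gene lay far apart. From highest to lowest hairpin the log2 change spanned 12.9 for TGM2, 12.59 for PADI4 and 11.22 for TGM1, the 7th, 8th and 18th widest of 534 genes with 5 hairpins, for which the median span was 3.84. The lowest hairpin had 0 tags at PD60 for TGM2 and PADI4, and at most 2 tags for TGM1. The low end of each span, and with it the rank, thus depended on the added 1 CPM and the PD40 level. Without its highest hairpin the mean was -4.10 for PADI4, -5.31 for TGM2 and -5.03 for TGM1. Among the tags of each gene at PD60, the top hairpin held 99.6% for TGM2, 97.0% for PADI4 and 89.3% for TGM1. As summed tags, TGM2 went from rank 244 of 644 genes at PD40 to rank 11 at PD60, PADI4 from 114 to 20 and TGM1 from 149 to 30.

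The sums over hairpins also followed different courses. TGM1 held 0.159%, 0.352%, 0.488%, 0.364% and 0.825% of tags from PD40 to PD60. TGM2 held 0.102%, 0.0837%, 0.0444%, 0.140% and 2.26%, so that it was below its start until PD50. PADI4 held 0.190%, 0.290%, 0.441%, 1.30% and 1.70%, higher at each time. Of the 3 genes TGM1 had the largest share at PD45 and PD50, PADI4 at PD40 and PD55, and TGM2 at PD60.

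PADI4 acts on arginine, as do the protein arginine methyltransferases and JMJD6, an oxygenase described as an arginine demethylase and a lysyl hydroxylase. Of 10 such genes listed, 9 were measured, with 45 hairpins. At PD60, 0 of 43 tested were over 2-fold higher (library 2.28%) and 42 were over 2-fold lower (library 95.3%), with a median log2 change of -6.26. The library's median was -5.86, and both depend on the added 1 CPM. As plain ratios of PD60 to PD40 the order was the other way, with medians of 0.0011 for this list and 0.000955 for the library. Their tags went from 1.98% of the total at PD40 to 0.0834% at PD60. Of the total at PD40, 0.8735% came from PRMT5 TRCN0000107089 alone, which was 248-fold lower at PD60. The hairpin that ended nearest its start targeted JMJD6, TRCN0000063341, with 353, 357, 316, 348 and 321 CPM. CARM1 TRCN0000007168, against an arginine methyltransferase of histone H3, had 249, 1421, 2949, 3421 and 33.9 CPM, a gain that was gone at PD60. PADI4 had 1 of 5 hairpins higher at PD60 and this list 0 of 43, and that difference was not tested.

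Proteins known to bind PADI4 or to be citrullinated by it made up a second list of 5 genes, of which HDAC1, HDAC2, ING4 and EP300 were measured with 23 hairpins. At PD60, 3 were over 2-fold higher (library 2.28%) and 18 over 2-fold lower (library 95.3%), with a median log2 change of -5.92 against -5.86 in the library. As plain ratios of PD60 to PD40 the medians were 0.00218 for this list and 0.000955 for the library. At 0 tags were 21.7% of this list and 44.1% of the library. HDAC2 TRCN0000004823, against a histone deacetylase, had 284, 279, 68.8, 64.1 and 27996 CPM, so that its gain, the highest PD60 ratio of the library at 98.5, lay in the last interval. EP300 TRCN0000009884, against a histone acetyltransferase, ended 3.41-fold higher (3.39 to 3.44). EP300 TRCN0000009882 was 15.9-fold above PD40 at PD55 and ended 3.24-fold higher (3.15 to 3.34). Over 2-fold lower were 6 of 8 EP300 hairpins and 4 of 5 HDAC2 hairpins. For HDAC1, TRCN0000004818 had 561, 631, 631, 770 and 945 CPM, ending within 2-fold of its start. For ING4, a chromatin reader that PADI4 citrullinates, TRCN0000131049 had 856, 2306, 1739, 1541 and 593 CPM, a course that, like that of PADI4 TRCN0000051679, was highest before PD55.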

How the data were processed

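Genomic DNA from 50 samples (10 plates at each of 5 PD) was sequenced over the hairpins. The authors deposited counts of tags per hairpin, per the file headers with 1 column per PD; per the submitters' processing notes Bowtie 1.0.1 was among the tools. Its settings, and the way plates were combined, were not given in the sources used here. The design text names 3455 hairpins, and 3443 were analysed. Columns were scaled to counts per 1000000 tags (CPM), and 1 tag was 0.0869 to 0.121 CPM. Fold changes used a pseudocount of 1 CPM, and 0 tags were set to a floor of 3 tags for bounds. TMM and median-of-ratios scaling came from edgeR 4.0.16 in R 4.3.3, the rest from scipy 1.17.1, pandas 2.3.3 and numpy 2.4.6 in Python 3.11.15. Scripts were tested on simulated counts in which most hairpins did not change, so the general loss seen here was not simulated.

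With 1 pooled column per PD no test was run. Each hairpin over 2-fold above PD40 at any later time was named, with the most abundant, highest and lowest of each gene, and here the remaining members too. Of the 2 other lists, members over 2-fold higher at PD60 were named. The PRMT5, CARM1, JMJD6, HDAC1 and ING4 hairpins were chosen after their values were seen. Members and lists were chosen with earlier results of these data known. PRMT10 and ELK1, on the lists, were not analysed here. Alternatives covered scaling, pseudocount, count minimum, threshold, end point, starting point and left-out hairpins. The 3 gene names are current RefSeq symbols (GRCh38.p14).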

Additional observations from a re-analysis of the deposited data

How the results depend on the processing

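Directions in the text are relative to the column total. TMM factors, 8.94 for the PD40 column and 0.0777 for the PD60 column, moved the library's median log2 change from -5.86 to -1.84 (-1.91 with median-of-ratios size factors). The members' median moved from -5.44 to 0.02 (0.07 with median-of-ratios factors). With TMM 7 members were over 2-fold higher (library 18.8%) and 7 lower (library 64.4%), and with median-of-ratios factors also 7 (library 19.3%) and 7 (library 64.8%). The gene means became 2.99 for PADI4, 1.81 for TGM1 and 1.95 for TGM2 with TMM, and 2.93, 1.78 and 1.89 with median-of-ratios factors. Sign also turned for TGM2 TRCN0000000243 (0.02 and 0.07), TGM2 TRCN0000000239 (5.20 and 5.26), PADI4 TRCN0000051679 (5.05 and 5.11) and PADI4 TRCN0000051681 (6.57 and 6.63, from -0.25). PADI4 TRCN0000051679 was at 0.63 with PD55 as end point.

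The count of 4 higher members was the same with pseudocounts of 0.5 (library 2.28%) and 10 (library 2.19%) and with no minimum count (library 2.27%). It was also 4 with at least 50 counts at PD40 (library 2.31%) and with PD55 as end point (library 2.92%). It was 3 at a 4-fold threshold (library 1.26%) and 3 from PD45 (library 2.12%), a starting point added after the data were seen. The count of lower members was 8 to 10 of 15 over these settings (library 91.7% to 95.3%). Leaving out 1 hairpin gave means of -4.10 to -0.95 for PADI4, -5.31 to -2.09 for TGM2 and -5.03 to -2.22 for TGM1. The members' share at PD60 was 2.594% without TGM2 TRCN0000000241 and 1.462% of tags outside the 50 most abundant hairpins at PD60. With counts under 3 raised to 3, also added later, the means were -2.16, -2.91 and -3.17 for PADI4, TGM2 and TGM1. No paired analysis was possible because the 10 numbered plates of a PD share 1 column. At PD60 the floor of 3 tags was 0.363 CPM, and losses beyond it were not resolved at this depth. The exact 95% upper limit for 0 tags was 4.46e-05% of tags, against 3.63e-05% held by 3 tags. Folds given as "at least" are therefore bounds of the floor and not of the interval.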
